A study of Saccharomyces cerevisiae with 12 samples.

Results

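The 59 genes described here encode assembly factors of the large ribosomal subunit in the budding yeast Saccharomyces cerevisiae. They were taken from a fixed list of gene symbols, covering proteins that build, mature and export the precursor of that subunit, and were not chosen by a threshold on measured values. Earlier results of these data were known when the list was made, so its counts beside all genes are descriptions. All 59 were found among the 5449 genes measured, each through 1 probe set of its own that is shared with no other gene. Transcript levels came from 4 groups of 3 chemostat cultures: EC1118 at 15 °C, EC1118 at 30 °C, CEN.PK113-7D at 15 °C and CEN.PK113-7D at 30 °C. EC1118 is a diploid industrial wine strain and CEN.PK113-7D is a laboratory strain, haploid and of mating type a, so each strain stands for 1 genetic background, and strain and ploidy cannot be told apart. Every culture was anaerobic, limited by nitrogen, fed minimal medium supplemented with anaerobic growth factors and held in steady state at a dilution rate of 0.05 per h. The dilution rate sets the growth rate, so both temperatures were compared at one growth rate. The series asks how growth temperature alters transcription in a laboratory and a wine strain.

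Ribosome assembly begins in the nucleolus, where RNA polymerase I transcribes a long precursor RNA that is folded, modified and cut while ribosomal proteins and assembly factors bind to it. The precursor of the large subunit then passes through the nucleoplasm, is exported through nuclear pores and sheds its last factors in the cytoplasm. In yeast the genes for these factors form a large co-regulated group that is known to follow growth rate and nutrient supply. Cold is known to stabilise RNA structures, and mutants of many assembly factors are cold-sensitive.

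The deposited values are linear intensities on 12 Affymetrix arrays, 1 per culture, with a floor of 10. Per array, that floor held between 1.90% and 3.31% of probe sets, and it held 0 of the 59 genes on any array. Array medians lay between 329 and 353 at 15 °C and between 356 and 371 at 30 °C. Replicates correlated with r between 0.975 and 0.994 across genes. The strain labels were checked with STE2, the pheromone receptor of haploid a cells, which read between 67.5 and 92.9 in EC1118 and between 2810.2 and 4421 in CEN.PK113-7D. At 15 °C, replicate 3 of each strain correlated least with its group, and results without both of these least correlated 15 °C arrays are given below. The lowest pair of EC1118 was at 30 °C, replicates 1 and 2 with r = 0.979. Each p-value is from limma's two-sided test, adjusted by the Benjamini-Hochberg method across all 5449 genes and called at 0.05, and log2 changes are given with their standard error.

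At 15 °C most of the assembly genes stood higher than at 30 °C in both strains. In EC1118, 48 of the 59 passed the test upwards and 0 downwards, against a background of 24.2% of all genes higher and 30.0% lower. In CEN.PK113-7D, 49 passed upwards and 1 downwards, against 21.8% and 36.6% of all genes. The median log2 change of the 59 genes was 0.58 in EC1118 and 0.88 in CEN.PK113-7D, whereas the medians of all genes were -0.04 in EC1118 and -0.11 in CEN.PK113-7D. A total of 44 genes rose in both strains, and the share of all genes that did so was not counted. All 3 arrays at 15 °C lay above all 3 at 30 °C for 50 of the 59 genes in EC1118, against 28.8% of all genes, and for 49 in CEN.PK113-7D, against 23.8%. Without both least correlated arrays, 44 genes rose and 0 fell in EC1118, and 50 rose and 0 fell in CEN.PK113-7D.

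**Figure D1:**
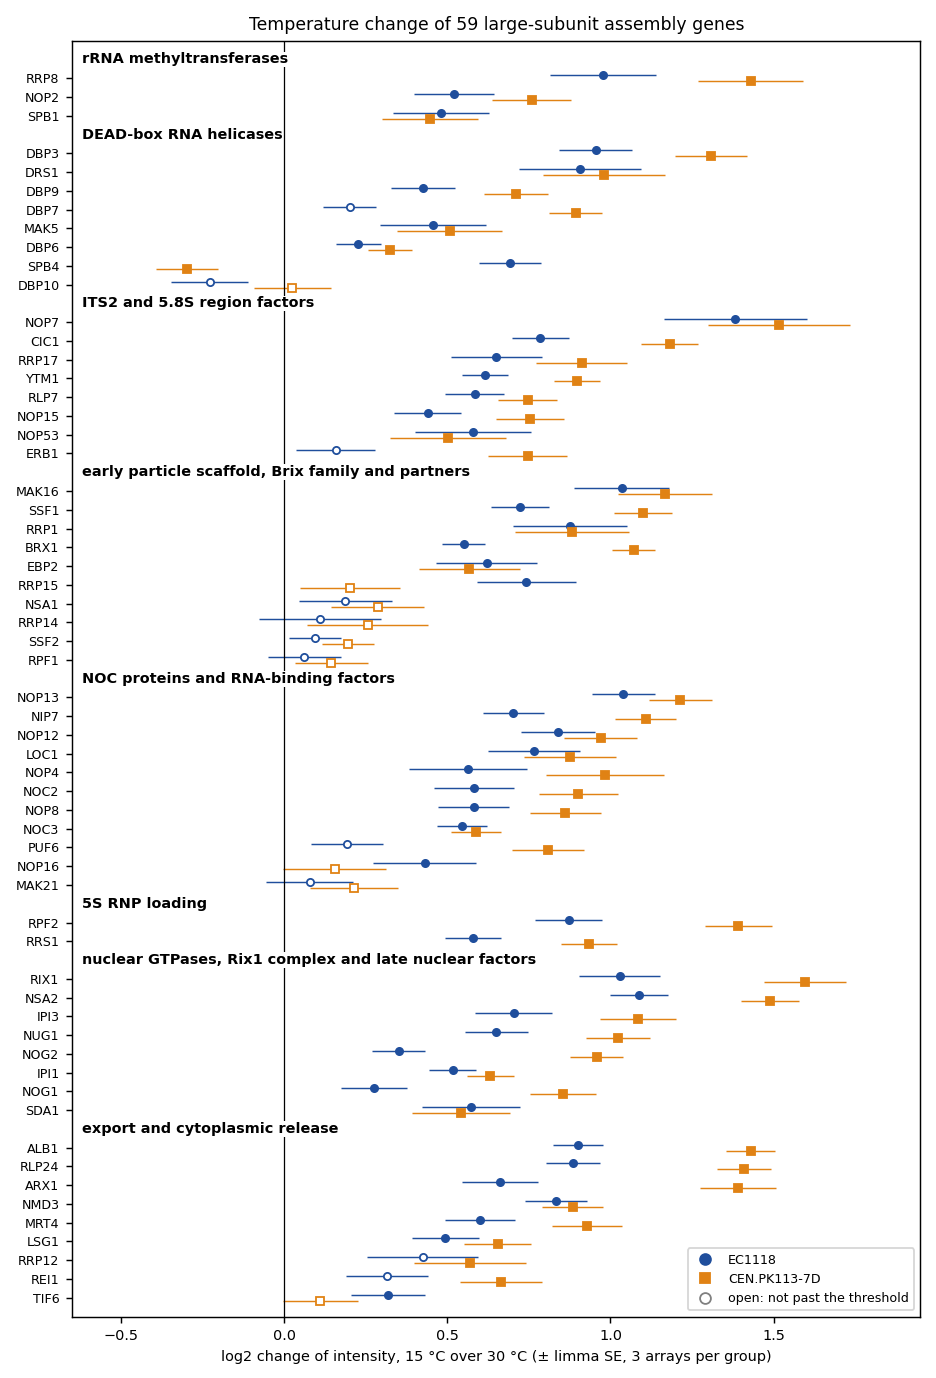
Log2 change, 15 °C over 30 °C, of each of the 59 genes with its limma standard error, grouped by role in assembly; circles are EC1118, squares CEN.PK113-7D, and open marks did not pass the test. The points lie to the right of 0 in every role class apart from SPB4 in CEN.PK113-7D and DBP10 in EC1118, and reach at most 1.60.

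The changes were mostly modest in size. Of the 59 genes, 5 passed with a rise of at least 2-fold in EC1118, against 146 of all 5449 genes (2.68%). In CEN.PK113-7D 17 of the 59 did so, against 159 of 5449 (2.92%). In both strains the share was above that of all genes. The 4 largest changes in EC1118 belonged to NOP7, NSA2, NOP13 and MAK16, and the 4 largest in CEN.PK113-7D to RIX1, NOP7, NSA2 and ALB1. Both strains used separate arrays in these comparisons, and across the 59 genes their log2 changes correlated with r = 0.72 (Spearman's rho = 0.75), close to r = 0.71 across all 5449 genes. Genes share arrays and are not independent, so these coefficients are descriptions.

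Among the enzymes that modify the rRNA, all 3 methyltransferases rose in both strains. RRP8, which methylates an adenine of the large rRNA, read 238, 231 and 284 in EC1118 at 15 °C, against 163, 114 and 109.9 at 30 °C. In CEN.PK113-7D it read 228, 209 and 162 at 15 °C, against 74.3, 73.4 and 72.4 at 30 °C. Every 15 °C array lay above every 30 °C array of the same strain, and the 30 °C values of CEN.PK113-7D were nearly alike. RRP8 rose 1.97-fold in EC1118 (log2 change 0.98 ± 0.16, adjusted p = 0.000627) and 2.69-fold in CEN.PK113-7D (1.43 ± 0.16 on the log2 scale, adjusted p = 5.28e-05). A filter on dim genes removes RRP8. In the 20 alternative fits that kept RRP8 both rises passed. The log2 change there ranged between 0.76 and 1.16 in EC1118 and between 1.01 and 1.71 in CEN.PK113-7D. NOP2, the cytosine methyltransferase of the same rRNA, rose on the log2 scale by 0.52 in EC1118 and 0.76 in CEN.PK113-7D. SPB1, a ribose methyltransferase, rose on the log2 scale by 0.48 in EC1118 (adjusted p = 0.0187) and 0.45 in CEN.PK113-7D (adjusted p = 0.0242). Its calls were not kept throughout: in EC1118 it was lost without replicate 1 or 3 at 15 °C or replicate 3 at 30 °C and with the compared groups alone, and in CEN.PK113-7D without replicate 1 or 2 at 15 °C or replicate 1 at 30 °C, with adjusted p up to 0.0691 in EC1118 and 0.0850 in CEN.PK113-7D.

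The DEAD-box RNA helicases unwind or remodel RNA in the early particles. Of 8, 6 rose in EC1118, and in CEN.PK113-7D 6 rose and 1 fell. DBP3, a helicase of early rRNA cutting, read 1059, 952 and 944 in EC1118 at 15 °C, against 609.9, 485 and 442 at 30 °C. In CEN.PK113-7D it read 1095, 1016 and 947 at 15 °C, against 427, 394 and 412 at 30 °C. The temperatures were far apart in both strains relative to the spread of replicates, with changes of 1.94-fold in EC1118 (adjusted p = 7.26e-05) and 2.48-fold in CEN.PK113-7D (adjusted p = 8.54e-06). DRS1 rose on the log2 scale by 0.91 in EC1118 and 0.98 in CEN.PK113-7D, and DBP9, a partner of DBP6, by 0.43 in EC1118 and 0.71 in CEN.PK113-7D. DBP6 and MAK5 passed with small log2 changes, DBP6 at 0.23 in EC1118 and 0.32 in CEN.PK113-7D and MAK5 at 0.46 in EC1118 and 0.51 in CEN.PK113-7D. In EC1118 the DBP6 call was lost without replicate 1 or 3 at 15 °C or replicate 3 at 30 °C (adjusted p up to 0.0649), and the MAK5 call without replicate 1 or 2 at 15 °C or replicate 2 or 3 at 30 °C and with the compared groups alone (up to 0.133). The MAK5 call in CEN.PK113-7D was lost without replicate 1 at 15 °C or replicate 1 or 2 at 30 °C (up to 0.0782).

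DBP10 and DBP7 behaved otherwise. DBP10, a helicase of the growing large particle, read 673, 544 and 623 in EC1118 at 15 °C, against 755, 776 and 626 at 30 °C. In CEN.PK113-7D it read 569, 523 and 454 at 15 °C, against 515, 461 and 540.0 at 30 °C. The temperatures overlapped in both strains, and the log2 changes of -0.23 ± 0.12 in EC1118 (adjusted p = 0.127) and 0.02 ± 0.12 in CEN.PK113-7D (adjusted p = 0.877) did not pass. Without replicate 3 of EC1118 at 30 °C the change in that strain did pass downwards (adjusted p = 0.0487). DBP7, a helicase tied to the peptidyl transferase region, read 341, 278 and 306 in EC1118 at 15 °C, against 268, 282 and 252 at 30 °C, and the groups overlapped. In CEN.PK113-7D DBP7 read 371, 365 and 352 at 15 °C, against 183, 202 and 201 at 30 °C, with no overlap. The log2 change of 0.20 ± 0.08 in EC1118 missed the threshold (adjusted p = 0.0569), while DBP7 rose 1.86-fold in CEN.PK113-7D (adjusted p = 1.28e-05). The EC1118 change passed without replicate 2 of EC1118 at 15 °C and under quantile normalization or median centring (adjusted p down to 0.00675).

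SPB4 was the single gene with opposite calls. It encodes a helicase that acts on the precursor of the large rRNA, and it read 264, 251 and 272 in EC1118 at 15 °C, against 185, 157 and 147 at 30 °C. In CEN.PK113-7D it read 322, 302 and 265 at 15 °C, against 366, 351 and 372 at 30 °C. The groups were separate in both strains, in opposite order. SPB4 rose 1.61-fold in EC1118 (log2 change 0.69 ± 0.09, adjusted p = 0.000197) and changed on the log2 scale by -0.30 ± 0.09 in CEN.PK113-7D (adjusted p = 0.0204). The CEN.PK113-7D call was lost without replicate 3 at 15 °C or replicate 1 or 3 at 30 °C of CEN.PK113-7D, under quantile normalization and under median centring, with adjusted p up to 0.138. The difference between the strains' temperature changes, 0.99 ± 0.13, passed (adjusted p = 0.00179) and did so in all 20 alternatives run for it.

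**Figure D2:**
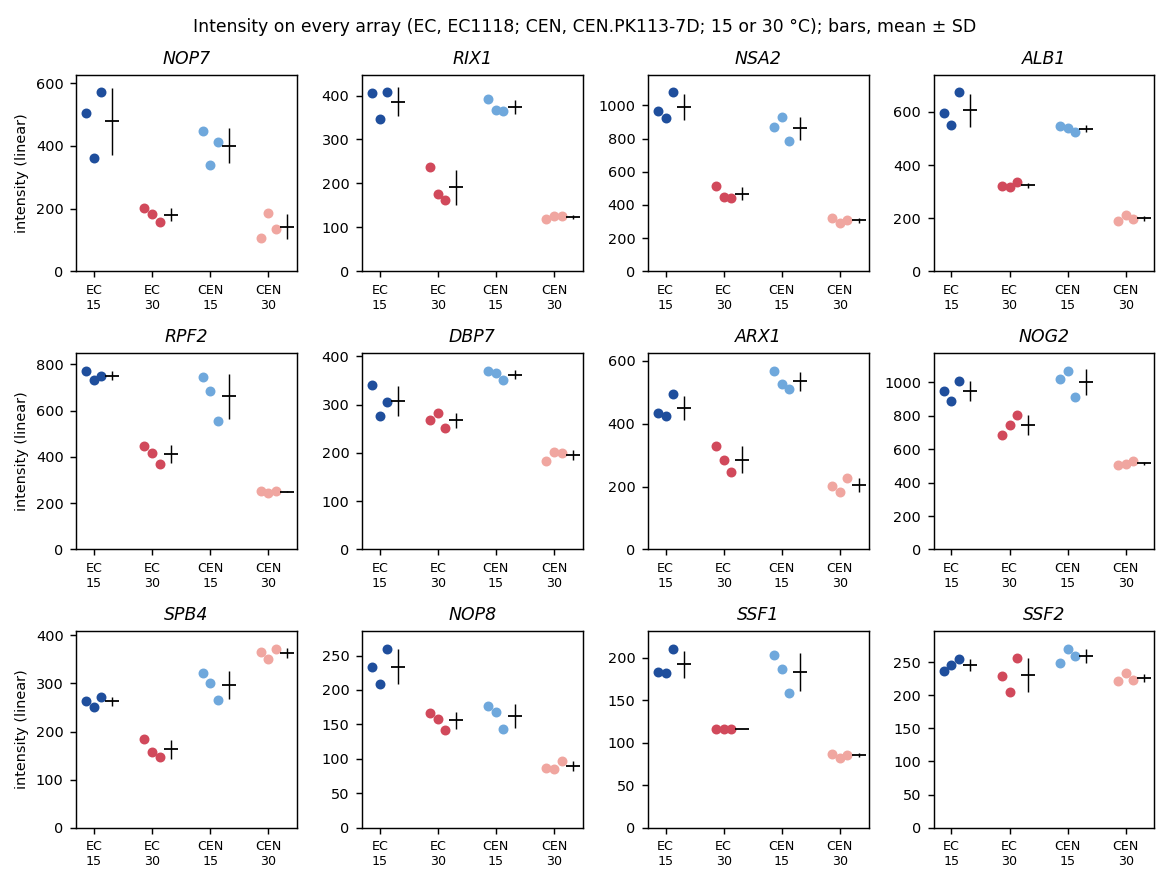
Linear intensity on every array for 12 of the genes, with the mean and SD of the 3 arrays of each group beside the points; each panel has its own axis from 0, and panels are not comparable in level. SPB4 is highest in CEN.PK113-7D at 30 °C, SSF2 is nearly flat across groups, and NOP7, RIX1, NSA2, ALB1 and RPF2 are higher at 15 °C in both strains.

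A group of 8 factors acts at the second internal transcribed spacer and the adjoining short rRNA, and it includes the complex of NOP7, ERB1 and YTM1 that links rRNA processing to the remodelling ATPase of the nucleus. Of these, 7 rose in EC1118 and 8 in CEN.PK113-7D. NOP7 read 505, 360.3 and 571 in EC1118 at 15 °C, against 202, 184 and 158 at 30 °C. In CEN.PK113-7D NOP7 read 449, 339 and 412 at 15 °C, against 107, 185 and 135 at 30 °C. Groups did not overlap, but replicates differed more than for most of the genes, and the folds were 2.61-fold in EC1118 (log2 change 1.38 ± 0.22, adjusted p = 0.000462) and 2.86-fold in CEN.PK113-7D (1.52 ± 0.22 on the log2 scale, adjusted p = 0.000222). Its partner YTM1 had tighter replicates and smaller log2 changes of 0.61 ± 0.07 in EC1118 and 0.90 ± 0.07 in CEN.PK113-7D. ERB1, the third protein of the complex, read 687, 589.6 and 609.7 in EC1118 at 15 °C, against 664, 538 and 498 at 30 °C. It read 653, 668 and 537 in CEN.PK113-7D at 15 °C, against 363, 345 and 395 at 30 °C. ERB1 thus overlapped between temperatures in EC1118 (log2 change 0.16 ± 0.12, adjusted p = 0.299) and was separate in CEN.PK113-7D, where it rose on the log2 scale by 0.75 ± 0.12 (adjusted p = 0.000472). CIC1, which sits on the spacer, rose on the log2 scale by 0.79 ± 0.09 in EC1118 and 1.18 ± 0.09 in CEN.PK113-7D. RLP7, a relative of ribosomal protein L7 that also binds there, rose on the log2 scale by 0.58 in EC1118 and 0.75 in CEN.PK113-7D, NOP15 by 0.44 in EC1118 and 0.75 in CEN.PK113-7D, and the exonuclease RRP17 by 0.65 in EC1118 and 0.91 in CEN.PK113-7D. NOP53, which recruits the exosome's helicase, rose on the log2 scale by 0.58 in EC1118 and 0.50 in CEN.PK113-7D but lost the call in EC1118 without replicate 3 at 15 °C or replicate 2 or 3 at 30 °C (adjusted p up to 0.0676). In CEN.PK113-7D, where its groups overlapped, it lost the call without replicate 1 or 2 at either temperature and with the compared groups alone (up to 0.120).

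The early scaffold, with the Brix-domain proteins and their partners, held 4 of the 6 genes that passed in neither strain. Of 10 genes, 6 rose in EC1118 and 5 in CEN.PK113-7D, and 0 fell. MAK16, a subunit of a module with RPF1, NSA1 and RRP1, read 298, 279 and 311 in EC1118 at 15 °C, against 167, 149 and 121 at 30 °C. In CEN.PK113-7D MAK16 read 310.4, 255 and 209 at 15 °C, against 120.1, 111 and 109.6 at 30 °C. It rose on the log2 scale by 1.03 ± 0.15 in EC1118 (adjusted p = 0.000229) and 1.17 ± 0.15 in CEN.PK113-7D (adjusted p = 9.06e-05), and every 15 °C array was above every 30 °C array in its strain. RRP1 of the same module rose on the log2 scale by 0.88 ± 0.17 in EC1118 and 0.88 ± 0.17 in CEN.PK113-7D. RPF1, a Brix-domain protein, read 337, 322 and 388 in EC1118 at 15 °C, against 381, 308 and 316 at 30 °C, and 314, 283 and 258 in CEN.PK113-7D at 15 °C, against 253, 239 and 280.2 at 30 °C. Both pairs of groups overlapped, and neither log2 change passed, 0.06 ± 0.11 in EC1118 (adjusted p = 0.669) and 0.14 ± 0.11 in CEN.PK113-7D (adjusted p = 0.29). NSA1 changed on the log2 scale by 0.19 ± 0.14 in EC1118 (adjusted p = 0.292) and 0.29 ± 0.14 in CEN.PK113-7D (adjusted p = 0.107) without passing. In CEN.PK113-7D the NSA1 change passed without replicate 3 at 15 °C, without that replicate of both strains, and under quantile normalization or median centring (adjusted p down to 0.00375).

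BRX1, another Brix-domain protein, and its partner EBP2 both rose. BRX1 read 1277, 1217 and 1325 in EC1118 at 15 °C, against 929, 826 and 855 at 30 °C. In CEN.PK113-7D BRX1 read 1139.6, 1202 and 1206 at 15 °C, against 548, 544 and 598 at 30 °C. The replicates were tight in all 4 groups, and the log2 rise was 0.55 ± 0.07 in EC1118 and 1.07 ± 0.07 in CEN.PK113-7D. EBP2 rose on the log2 scale by 0.62 in EC1118 and 0.57 in CEN.PK113-7D. RRP15, an early factor, read 640.3, 518 and 515 in EC1118 at 15 °C, against 293, 375 and 332 at 30 °C, and rose on the log2 scale by 0.74 ± 0.15 (adjusted p = 0.00221). In CEN.PK113-7D RRP15 read 496, 462 and 389 at 15 °C, against 339, 363 and 477 at 30 °C, an overlapping pair with a log2 change of 0.20 ± 0.15 (adjusted p = 0.277). The strain difference in its response, 0.54 ± 0.22, did not pass (adjusted p = 0.131). RRP14, which acts with SSF1, changed on the log2 scale by 0.11 ± 0.19 in EC1118 and 0.26 ± 0.19 in CEN.PK113-7D with overlapping groups.

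SSF1 and SSF2 are paralogues that encode near-identical Brix-domain proteins, so probes may read both to some extent, although each gene has its own probe set. SSF1 read 184, 182 and 210.3 in EC1118 at 15 °C, against 116, 116 and 116 at 30 °C, and 203, 187 and 159 in CEN.PK113-7D at 15 °C, against 86.9, 82.3 and 85.5 at 30 °C. SSF2 read 236, 245 and 254 in EC1118 at 15 °C, against 229.6, 205 and 256 at 30 °C, and 248, 270.1 and 259 in CEN.PK113-7D at 15 °C, against 222, 233 and 222 at 30 °C. SSF1 was separate between temperatures in both strains and SSF2 was not in EC1118. SSF1 rose 1.65-fold in EC1118 (adjusted p = 0.000108) and 2.14-fold in CEN.PK113-7D (adjusted p = 6.94e-06). The filter on dim genes removes SSF1. In the other 20 alternatives its log2 change ranged between 0.54 and 0.80 in EC1118 and between 0.78 and 1.33 in CEN.PK113-7D. SSF2 changed on the log2 scale by 0.10 ± 0.08 in EC1118 (adjusted p = 0.333) and 0.20 ± 0.08 in CEN.PK113-7D (adjusted p = 0.0537), and in CEN.PK113-7D it passed in 5 of 21 alternatives. The log2 ratio of SSF1 to SSF2 within an array was higher at 15 °C than at 30 °C by 0.63 in EC1118 and by 0.90 in CEN.PK113-7D. The pair was picked with the members' values known, so this ratio is given with no test.

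The NOC proteins and the RNA-binding factors accompany the particle from the nucleolus to the nucleoplasm, and 9 of 11 rose in each strain. NOP13, a nucleolar protein with RNA recognition motifs, read 335, 323 and 359 in EC1118 at 15 °C, against 182, 162 and 152 at 30 °C. In CEN.PK113-7D NOP13 read 466, 452 and 409 at 15 °C, against 173, 187 and 214 at 30 °C. The temperatures were far apart in both strains, and NOP13 rose 2.06-fold in EC1118 (adjusted p = 1.88e-05) and 2.32-fold in CEN.PK113-7D (adjusted p = 6.01e-06). The related NOP12 rose on the log2 scale by 0.84 ± 0.11 in EC1118 and 0.97 ± 0.11 in CEN.PK113-7D, NOP8 by 0.58 ± 0.11 in EC1118 and 0.86 ± 0.11 in CEN.PK113-7D, and NIP7, the partner of NOP8, by 0.70 ± 0.09 in EC1118 and 1.11 ± 0.09 in CEN.PK113-7D. NOP4 rose on the log2 scale by 0.56 ± 0.18 in EC1118 and 0.98 ± 0.18 in CEN.PK113-7D, but its call in EC1118 was lost without replicate 1 or 3 at 15 °C or replicate 3 at 30 °C (adjusted p up to 0.0908). NOC2, which pairs first with MAK21 and later with NOC3, rose on the log2 scale by 0.58 in EC1118 and 0.90 in CEN.PK113-7D, and NOC3 by 0.54 in EC1118 and 0.59 in CEN.PK113-7D. MAK21 read 649.9, 548 and 654 in EC1118 at 15 °C, against 693, 548 and 522 at 30 °C, and 624, 611 and 614 in CEN.PK113-7D at 15 °C, against 464, 505 and 638 at 30 °C. Its groups overlapped in both strains (adjusted p = 0.651 in EC1118 and 0.194 in CEN.PK113-7D). NOC2 and NOC3 thus passed and MAK21 did not, and the difference between them was not tested. In CEN.PK113-7D the MAK21 change passed without replicate 3 at 30 °C and under quantile normalization or median centring (adjusted p down to 0.0234).

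PUF6 and LOC1 also act in the localisation of ASH1 mRNA. PUF6 read 719, 659 and 692 in EC1118 at 15 °C, against 662, 633 and 524 at 30 °C, which overlapped at the edge. In CEN.PK113-7D PUF6 read 698, 671 and 562 at 15 °C, against 395, 332 and 371 at 30 °C, without overlap. Its log2 change of 0.19 ± 0.11 in EC1118 did not pass (adjusted p = 0.165), and in CEN.PK113-7D it rose on the log2 scale by 0.81 ± 0.11 (adjusted p = 0.000161). LOC1 rose on the log2 scale by 0.77 ± 0.14 in EC1118 and 0.88 ± 0.14 in CEN.PK113-7D. NOP16 passed in EC1118 alone, with a log2 change of 0.43 ± 0.16 (adjusted p = 0.0403), with 0.16 ± 0.16 in CEN.PK113-7D (adjusted p = 0.42) and no strain difference past the threshold (adjusted p = 0.464). The NOP16 call was lost without replicate 1 or 3 at 15 °C or replicate 3 at 30 °C of EC1118, and without replicate 2 at 15 °C or replicate 3 at 30 °C of CEN.PK113-7D, and with the compared groups alone (adjusted p up to 0.150).

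RPF2 and RRS1 form the pair that brings the small, separately transcribed rRNA and its ribosomal proteins into the particle, and both rose in both strains. RPF2 read 773, 731 and 752 in EC1118 at 15 °C, against 447, 417 and 371 at 30 °C. In CEN.PK113-7D RPF2 read 744, 686 and 556 at 15 °C, against 252, 246 and 253 at 30 °C. The 30 °C arrays of CEN.PK113-7D were the lowest and the tightest, and RPF2 rose 1.83-fold in EC1118 (adjusted p = 8.21e-05) and 2.62-fold in CEN.PK113-7D (adjusted p = 4.17e-06). RRS1 read 552, 541 and 514 in EC1118 at 15 °C, against 361, 377 and 339.6 at 30 °C, and 529, 488 and 429.5 in CEN.PK113-7D at 15 °C, against 249, 272 and 236 at 30 °C. Its groups were likewise separate, with smaller log2 changes of 0.58 ± 0.09 in EC1118 and 0.93 ± 0.09 in CEN.PK113-7D.

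The nuclear GTPases, the Rix1 complex and the late nuclear factors prepare the particle for export, and all 8 rose in both strains. RIX1 had the largest change of the 59 genes in CEN.PK113-7D. It read 405, 347 and 407 in EC1118 at 15 °C, against 237, 177 and 161 at 30 °C. In CEN.PK113-7D it read 392, 367 and 364 at 15 °C, against 119, 126 and 127 at 30 °C. The 15 °C values overlapped between the strains, whereas the 30 °C values of EC1118 were above all of those of CEN.PK113-7D. RIX1 rose 2.04-fold in EC1118 (log2 change 1.03 ± 0.13, adjusted p = 9.95e-05) and 3.02-fold in CEN.PK113-7D (1.60 ± 0.13 on the log2 scale, adjusted p = 5.56e-06). The other subunits rose less, IPI1 by 0.52 in EC1118 and 0.63 in CEN.PK113-7D and IPI3 by 0.70 in EC1118 and 1.08 in CEN.PK113-7D. NSA2, which joins the particle before export, read 969, 927 and 1079 in EC1118 at 15 °C, against 513, 449 and 439.6 at 30 °C. In CEN.PK113-7D NSA2 read 871, 929 and 788 at 15 °C, against 321, 292 and 308 at 30 °C. The groups were far apart, at 2.12-fold in EC1118 (adjusted p = 1.11e-05) and 2.81-fold in CEN.PK113-7D (adjusted p = 1.21e-06). SDA1 rose on the log2 scale by 0.57 in EC1118 and 0.54 in CEN.PK113-7D.

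The 3 nuclear GTPases rose by different amounts in each strain. NUG1 rose on the log2 scale by 0.65 ± 0.10 in EC1118 and 1.02 ± 0.10 in CEN.PK113-7D. NOG2, a checkpoint of nuclear maturation, read 947, 886 and 1009 in EC1118 at 15 °C, against 683, 744 and 804 at 30 °C. In CEN.PK113-7D NOG2 read 1022, 1069 and 913 at 15 °C, against 507, 509 and 527 at 30 °C. NOG2 rose 1.27-fold in EC1118 (adjusted p = 0.00453) and 1.94-fold in CEN.PK113-7D (adjusted p = 9e-06), with no overlap in either. NOG1 read 888, 802 and 805 in EC1118 at 15 °C, against 782, 699 and 592 at 30 °C, and 897, 889 and 784 in CEN.PK113-7D at 15 °C, against 500.4, 458 and 462 at 30 °C. It rose on the log2 scale by 0.28 ± 0.10 in EC1118 (adjusted p = 0.0403) and by 0.85 ± 0.10 in CEN.PK113-7D (adjusted p = 6.7e-05), with no overlap in either. The EC1118 call of NOG1 was lost without any 1 of its 15 °C arrays, without replicate 2 or 3 at 30 °C, without replicate 2 at 15 °C or replicate 2 or 3 at 30 °C of CEN.PK113-7D, and with the compared groups alone (adjusted p up to 0.151).

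The factors of export and cytoplasmic release follow the particle out of the nucleus, and of 9 genes 7 rose in EC1118 and 8 in CEN.PK113-7D. ALB1, the partner of the export factor ARX1, read 597, 549.5 and 673 in EC1118 at 15 °C, against 319.8, 316 and 336 at 30 °C. In CEN.PK113-7D ALB1 read 547, 541 and 524 at 15 °C, against 191, 211 and 197 at 30 °C. ALB1 rose 1.87-fold in EC1118 (adjusted p = 1.18e-05) and 2.69-fold in CEN.PK113-7D (adjusted p = 7.57e-07), with tight replicates. ARX1 read 433, 425 and 493 in EC1118 at 15 °C, against 329, 284 and 245 at 30 °C. In CEN.PK113-7D ARX1 read 569, 525 and 509.8 at 15 °C, against 203, 183 and 227 at 30 °C. The highest ARX1 values were those of CEN.PK113-7D at 15 °C and the lowest those of the same strain at 30 °C, and the gene rose on the log2 scale by 0.66 ± 0.12 in EC1118 and 1.39 ± 0.12 in CEN.PK113-7D. REI1, which releases both proteins in the cytoplasm, changed on the log2 scale by 0.32 ± 0.13 in EC1118 and missed the threshold (adjusted p = 0.0573), although all 3 arrays at 15 °C lay above those at 30 °C. The EC1118 change passed in 8 of 21 alternatives (adjusted p down to 0.00459), namely after median centring, quantile normalization or removal of dim genes, with the trend and robust options, with the compared groups alone, and without replicate 2 of CEN.PK113-7D at 15 °C, replicate 3 of that group, or replicate 3 of both strains at 15 °C. In CEN.PK113-7D REI1 rose on the log2 scale by 0.66 ± 0.13 (adjusted p = 0.00125).

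RLP24, a placeholder that is exchanged for ribosomal protein L24, read 849, 798 and 764 in EC1118 at 15 °C, against 451, 445 and 409 at 30 °C. It read 821, 885 and 726 in CEN.PK113-7D at 15 °C, against 314, 285 and 313 at 30 °C. Both strains showed wide gaps in log2 intensity, of 0.89 ± 0.08 in EC1118 and 1.41 ± 0.08 in CEN.PK113-7D. MRT4, the placeholder for the stalk protein P0, rose on the log2 scale by 0.60 in EC1118 and 0.93 in CEN.PK113-7D, the export adapter NMD3 by 0.83 in EC1118 and 0.88 in CEN.PK113-7D, and LSG1, the GTPase that releases NMD3, by 0.49 in EC1118 and 0.65 in CEN.PK113-7D. TIF6, which keeps the subunits apart until maturation is complete, read 1424, 1277 and 1367 in EC1118 at 15 °C, against 1121, 1030.3 and 1109.7 at 30 °C. In CEN.PK113-7D TIF6 read 1114, 1285 and 1197 at 15 °C, against 1074, 944 and 1340.5 at 30 °C. TIF6 rose on the log2 scale by 0.32 ± 0.11 in EC1118 (adjusted p = 0.037) and overlapped in CEN.PK113-7D (a log2 change of 0.11 ± 0.11 with adjusted p = 0.428). The EC1118 call was lost without replicate 1 or 3 at 15 °C or any 1 array at 30 °C of that strain (adjusted p up to 0.110), and the CEN.PK113-7D change passed upwards without replicate 3 at 30 °C and under quantile normalization (adjusted p down to 0.0385). RRP12, an export factor of both subunits, changed on the log2 scale by 0.42 ± 0.17 in EC1118 (adjusted p = 0.0581) and rose on the log2 scale by 0.57 ± 0.17 in CEN.PK113-7D (adjusted p = 0.0157, or 0.0615 without replicate 1 at 15 °C). The EC1118 change of RRP12 passed in 9 of 21 alternatives, with the smallest adjusted p where the replicate number was a block (0.00587). The others were median centring, quantile normalization, removal of dim genes, the trend and robust options, and the omission of replicate 1 of EC1118 at 30 °C, of replicate 1 or 3 of CEN.PK113-7D at 15 °C, or of replicate 3 of both strains at 15 °C.

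By role, the median log2 change in EC1118 lay between 0.44, for the helicases, and 0.73, for RPF2 and RRS1. In CEN.PK113-7D it lay between 0.43, for the early scaffold, and 1.16, for RPF2 and RRS1. The early scaffold was the class with the lowest share passing, 6 of 10 in EC1118 and 5 of 10 in CEN.PK113-7D, and 4 of the 6 genes that passed in neither strain belong to it (NSA1, RPF1, RRP14 and SSF2, beside DBP10 and MAK21). These classes are small, and differences between them were not tested.

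The 2 strains were then compared at each temperature, with the caution that the array's probes were designed on a reference strain, so a sequence difference in EC1118 and a difference in RNA level cannot be told apart. At 30 °C the assembly genes stood higher in EC1118: 39 of 59 passed upwards and 1 downwards, against 21.0% of all genes higher and 20.4% lower. The median log2 difference, EC1118 minus CEN.PK113-7D, was 0.39, beside 0.01 for all genes. At 15 °C fewer passed, 8 upwards (13.6%) and 2 downwards, against 19.0% and 14.0% of all genes, and a median of 0.16 beside 0.05. Both shares at 15 °C were thus below those of all genes. All 3 arrays of EC1118 lay above those of CEN.PK113-7D for 18 genes and below them for 3 at 15 °C, against 26.4% and 18.5% of all genes. The 18 genes were a share close to that of all genes. At 30 °C they did so for 41 and 1, against 28.4% and 26.4%. The count at 15 °C was 2 without replicate 3 of either strain at 15 °C or without both, 3 without replicate 1 of EC1118 at 15 °C, 4 without replicate 2 of CEN.PK113-7D at 15 °C and 6 without replicate 2 of CEN.PK113-7D at 30 °C. At 30 °C the count stayed between 28, without replicate 1 of EC1118, and 44, without replicate 3 of EC1118. Of the 39 upward calls at 30 °C, 26 held in every alternative that kept the gene and 13 were lost in some. The 1 downward call held in all.

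**Figure D3:**
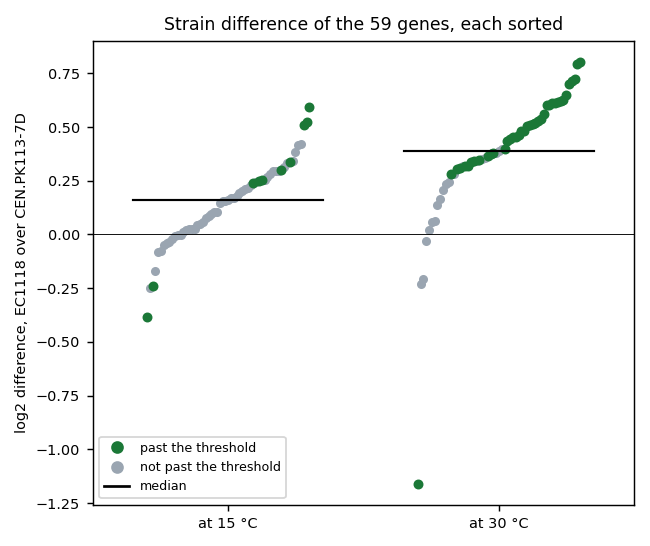
Log2 difference, EC1118 minus CEN.PK113-7D, of each of the 59 genes, sorted by size, at 15 °C and at 30 °C; green points passed the test, grey points did not, and bars mark medians. Most points at 30 °C lie above 0 with a median of 0.39, whereas those at 15 °C are nearer to 0 with a median of 0.16, and SPB4 stands apart at 30 °C.

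Among the genes higher in EC1118, NOP8 had the largest strain difference at 30 °C. It read 233, 208 and 259.7 in EC1118 at 15 °C, against 177, 169 and 143 in CEN.PK113-7D. At 30 °C NOP8 read 167, 158 and 142 in EC1118, against 86.3, 84.6 and 97.1 in CEN.PK113-7D. EC1118 was above CEN.PK113-7D on all arrays at both temperatures, by 1.44-fold at 15 °C (adjusted p = 0.00459) and 1.75-fold at 30 °C (adjusted p = 0.000239). RRP8 was 1.73-fold higher in EC1118 at 30 °C (adjusted p = 0.00311), and its log2 difference of 0.34 ± 0.16 at 15 °C did not pass (adjusted p = 0.136). Both are dim genes, and their log2 differences at 30 °C varied over the 20 alternatives that kept them. That of NOP8 ranged between 0.56 and 0.94 and that of RRP8 between 0.53 and 1.01. RRP1 had the largest difference at 15 °C, reading 567, 505 and 608 in EC1118, against 429, 419 and 281 in CEN.PK113-7D (log2 difference 0.59 ± 0.17, adjusted p = 0.0248). Replicate 3 of CEN.PK113-7D was the lowest of these by far. At 30 °C RRP1 differed on the log2 scale by 0.60 ± 0.17 (adjusted p = 0.0189).

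The genes higher in EC1118 at both temperatures were CIC1, DBP9, IPI1, NOC3, NOP15, NOP8 and RRP1, and NOP16 was higher at 15 °C alone. The share of all genes higher at both temperatures was not counted. Of the 10 calls at 15 °C, that of NOP13 held in all 21 alternatives run and that of NOP8 in the 20 that kept the gene, which the filter on dim genes removes, and the other 8 were each lost without replicate 3 of EC1118 and without replicate 3 of CEN.PK113-7D at 15 °C. With the replicate number as a block at 15 °C, DBP7 (adjusted p = 0.0622) and NOP15 (0.0600) no longer passed and RRP17 did (0.0242). NOP13 ran the other way at 15 °C, lower in EC1118 by 1.30-fold (log2 difference -0.38 ± 0.10, adjusted p = 0.0123), with all 3 arrays of EC1118 below those of CEN.PK113-7D. ARX1 was also below CEN.PK113-7D on all arrays at 15 °C, but its log2 difference of -0.25 ± 0.12 did not pass (adjusted p = 0.13). DBP7 was lower in EC1118 at 15 °C (log2 difference -0.24 ± 0.08, adjusted p = 0.0434) and higher at 30 °C (log2 difference 0.45 ± 0.08, adjusted p = 0.00135). SPB4 was 2.23-fold lower in EC1118 at 30 °C (log2 difference -1.16 ± 0.09, adjusted p = 6.86e-06), the single gene lower there, and its log2 difference of -0.17 ± 0.09 at 15 °C did not pass (adjusted p = 0.196). RRP15 differed on the log2 scale by -0.23 ± 0.15 at 30 °C (adjusted p = 0.253).

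The difference of the temperature changes, EC1118 minus CEN.PK113-7D, was tested in the same model and uses all 12 arrays, so it shares them with every comparison above. For 51 of the 59 genes the change was smaller in EC1118, against 44.1% of all genes. In the test, 10 genes had a lower change in EC1118, against 4.37% of all genes, and 1 a higher one, against 8.66%. The median difference was -0.25, beside 0.04 for all genes. The 10 were ARX1 (-0.73 ± 0.16, adjusted p = 0.0179), DBP7 (-0.69 ± 0.11, 0.00443), PUF6 (-0.62 ± 0.16, 0.0288), NOG2 (-0.61 ± 0.12, 0.00825), ERB1 (-0.59 ± 0.17, 0.0491), NOG1 (-0.58 ± 0.14, 0.0254), ALB1 (-0.53 ± 0.11, 0.0108), RLP24 (-0.52 ± 0.12, 0.0172), BRX1 (-0.52 ± 0.09, 0.00637) and RPF2 (-0.52 ± 0.15, 0.0418). They include 3 of the 9 export and release factors and 2 of the 3 nuclear GTPases. The calls of ALB1, ARX1, BRX1, DBP7, NOG2, RLP24 and SPB4 held in all 20 alternatives, whereas those of ERB1, NOG1, PUF6 and RPF2 held in 10, 13, 11 and 9 of them. Without replicate 1 or 2 of CEN.PK113-7D at 15 °C, replicate 2 or 3 of CEN.PK113-7D at 30 °C or replicate 2 of EC1118 at 15 °C, 7 genes passed, and 17 passed without both least correlated arrays. ERB1, NOG1, PUF6 and RPF2 each lost the call without any 1 of these 5 arrays, and also without replicate 3 at 15 °C or replicate 2 at 30 °C of EC1118. ERB1, PUF6 and RPF2 lost it without replicate 1 of EC1118 at either temperature too, and ERB1 and RPF2 without replicate 1 of CEN.PK113-7D at 30 °C.

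**Figure D4:**
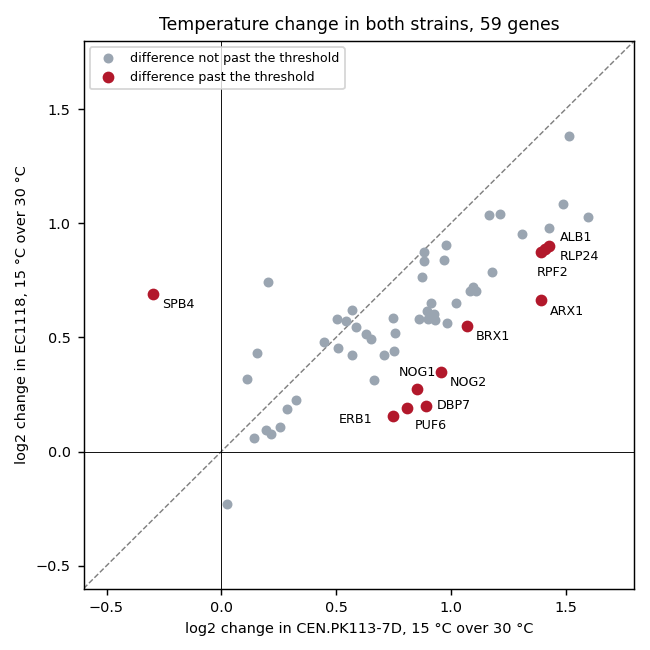
Log2 change, 15 °C over 30 °C, in EC1118 (vertical) against that in CEN.PK113-7D (horizontal) for the 59 genes; the dashed line marks equal changes, and red points passed the test of the difference. Most points lie below the line. SPB4 lies farthest to its left, and RRP15, which did not pass, is next.

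The groups can also be set side by side through the median of the 59 genes on each array, taken relative to the median of all genes on that array (log2). It was 0.65, 0.56 and 0.64 in EC1118 at 15 °C, against 0.05, -0.02 and -0.21 at 30 °C. In CEN.PK113-7D it was 0.61, 0.45 and 0.24 at 15 °C, against -0.40, -0.44 and -0.37 at 30 °C. The 4 groups did not overlap apart from those of the 2 strains at 15 °C, and CEN.PK113-7D at 30 °C was the lowest. The genes shifted together within most groups: replicate 3 of CEN.PK113-7D at 15 °C was the lowest of its 3 arrays for 47 of the 59 genes, against 31.7% of all genes, and replicate 1 the highest for 44, against 29.5%. In EC1118 at 30 °C replicate 1 was the highest for 41 genes, against 30.1% of all genes, and replicate 3 the lowest for 44, against 35.0%. In EC1118 at 15 °C replicate 2 was the lowest for 46, against 46.4%. The shift was smaller in CEN.PK113-7D at 30 °C. There replicate 2 was the lowest for 27, against 29.6%, and replicate 3 the highest for 28, against 42.6%. The 59 genes are therefore far from 59 separate measurements of a temperature or strain difference, and their counts should be read so.

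**Figure D5:**
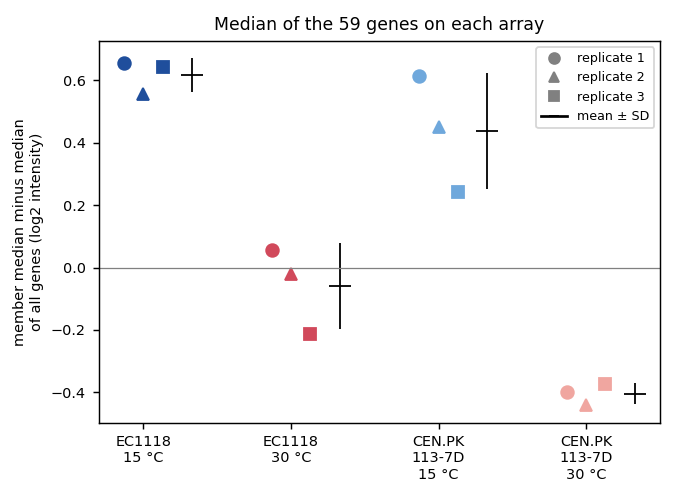
Median log2 intensity of the 59 genes minus the median of all genes, on each of the 12 arrays, with the mean and SD of each group. The 15 °C arrays lie between 0.24 and 0.65, the EC1118 arrays at 30 °C between -0.21 and 0.05, and the CEN.PK113-7D arrays at 30 °C between -0.44 and -0.37.

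Related genes outside the list were counted for comparison. Of all genes, 24.2% rose and 30.0% fell in EC1118, and 21.8% rose and 36.6% fell in CEN.PK113-7D. Of 26 other large-subunit assembly factors, 14 rose and 2 fell in EC1118 (median log2 change 0.29), and 17 rose and 0 fell in CEN.PK113-7D (median 0.61). HAS1, a helicase of both subunits' assembly, rose on the log2 scale by 1.12 ± 0.07 in EC1118 (adjusted p = 3.94e-06) and 1.55 ± 0.07 in CEN.PK113-7D (adjusted p = 4.1e-07). Of 62 factors of the small subunit, 39 rose and 1 fell in EC1118 (median 0.42), and 53 rose and 1 fell in CEN.PK113-7D (median 0.73). At 30 °C 39 of those 62 were higher and 1 lower in EC1118 than in CEN.PK113-7D, against 21.0% and 20.4% of all genes. In the small-subunit list the difference of the temperature changes had a median of -0.31, with 7 genes lower and 1 higher. The other large-subunit factors had a median of -0.23, with 5 of 26 lower and 0 higher. The median of the 59 genes was -0.25, so the smaller change in EC1118 was not particular to them. The shares that rose were 81.4% of the 59 genes and 62.9% of the small-subunit list in EC1118, and 83.1% of the 59 genes and 85.5% of the small-subunit list in CEN.PK113-7D, and no difference between the lists was tested. The ribosomal proteins of the large subunit, picked by symbol, formed a list of 76 genes with smaller medians. The list also took in RPP1, which encodes a subunit of RNase P and is no ribosomal protein. Of the 76, 34 rose and 0 fell in EC1118 (median 0.14), and 45 rose and 3 fell in CEN.PK113-7D (median 0.19). For 12 of the 76 the probe set is one that nearly identical genes share. RPL9A, with the smallest p of them in both strains, rose on the log2 scale by 1.03 ± 0.08 in EC1118 and 1.30 ± 0.08 in CEN.PK113-7D.

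Some of the genes lie beside another ribosome assembly gene in the RefSeq gene order of assembly R64. There were 7 such pairs, and in 0 of them were both genes among the 59. NSA2 and SSF1 are each transcribed away from a small-subunit factor. NSA2 rose on the log2 scale by 1.09 in EC1118 and its neighbour LCP5 changed by 0.16, while in CEN.PK113-7D the values were 1.49 and 0.77. SSF1 and its neighbour RRP3 changed on the log2 scale by 0.72 and 1.08 in EC1118 and 1.10 and 1.07 in CEN.PK113-7D. RIX1 lies beside UTP9 on the same strand, with log2 changes of 1.03 and 0.34 in EC1118 and 1.60 and 0.92 in CEN.PK113-7D. RRP15, convergent with NOC4, changed on the log2 scale by 0.74 beside 0.82 in EC1118 and by 0.20 beside 1.50 in CEN.PK113-7D. Whether adjacent genes were more alike than others was not tested.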

How the data were processed

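Each of 12 chemostat cultures, in 4 groups of 3 biological replicates per the series' design text, was measured on an Affymetrix expression array of its own. The authors deposited 1 linear intensity per probe set and array, with a floor of 10, and the values were used as deposited. How probes were summarised and normalized is not given in the labels or file headers used here. The number of arrays limits the precision.

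Of 5900 probe sets, 5498 had 1 gene in the platform annotation, 0 had several and 402 were unnamed here. For the 47 genes with several probe sets the brightest was used, which left 5449 genes, with 12 symbols updated through the RefSeq table of assembly R64. Only names and gene order were taken from that table, since the array's build is not given.

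A linear model of log2 intensity was run in R 4.3.3 with limma 3.58.1 (lmFit, eBayes, 1 coefficient per group, 8 residual and 2.22 prior degrees of freedom), with Benjamini-Hochberg adjustment over all genes and a threshold of 0.05. There were 5 comparisons: temperature within EC1118 and within CEN.PK113-7D, strain within 15 °C and within 30 °C, and the interaction of both factors. The fit was tested on simulated data. The 59 genes, the 8 role classes and the other lists were chosen with earlier results of these data known, so no list was tested. Values on every array are given for the genes with the 4 largest and 2 smallest changes per temperature comparison, the 2 largest and 2 smallest per strain comparison, the 4 smallest p of the difference and the leading gene of each role class. Further genes were added after their values were seen.

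Alternatives were a replicate block, quantile normalization, median centring, a fit of the compared groups alone, a filter removing genes in the lowest 25% of intensity, eBayes with trend and robust options, 50 added as a pseudocount, averaged probe sets per gene and each array left out. The omission of both arrays least correlated with their 15 °C groups was added after seeing the data. All same-numbered arrays deviated together (every r over 0.1) only between EC1118 and CEN.PK113-7D at 15 °C. There r was 0.48, 0.32 and 0.39. The arrays of replicate 1 deviated together in every pair of groups, with r between 0.34 and 0.48. For the other replicates, r of same-numbered arrays lay between -0.24 and 0.39 over the pairs of groups. Pairing by replicate number comes from the data, as the labels give none.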

Additional observations from a re-analysis of the deposited data

Results flagged for a closer look

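The temperature change differed between the strains for 11 of the 59 genes in limma's test of the difference (EC1118 minus CEN.PK113-7D, log2, adjusted p under 0.05). SPB4 alone had the larger change in EC1118, by 0.99. The other 10 had the smaller change in EC1118: ARX1 (-0.73), DBP7 (-0.69), PUF6 (-0.62), NOG2 (-0.61), ERB1 (-0.59), NOG1 (-0.58), ALB1 (-0.53), RLP24 (-0.52), BRX1 (-0.52) and RPF2 (-0.52). Of all genes, 8.66% passed with a larger and 4.37% with a smaller change in EC1118.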

How the results depend on the processing

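A total of 21 alternatives were run, 8 that change the processing, 12 that leave out 1 array each and 1 that leaves out 2 arrays. Not all of them put every result to the test. Averaging probe sets could not change the values of the 59 genes, which have 1 probe set each. In a comparison of 2 groups, leaving out an array of another group keeps each log2 change and alters only the shared estimate of spread. The temperature counts moved little: leaving out 1 array gave 41 to 50 genes passing in EC1118 (48) and 46 to 51 in CEN.PK113-7D (50), with medians of 0.54 to 0.65 and 0.78 to 0.93. The median in CEN.PK113-7D was 1.02 with quantile normalization and 0.75 with a pseudocount of 50, against 0.88. Quantile normalization also moved the median of all genes in that strain to 0.01, against -0.11. Of the 44 genes that rose in both strains, 38 did so under every alternative, leaving aside the filter on dim genes, which keeps 55 of the 59. The strain count at 15 °C was 3 with the compared groups alone, 5 with quantile normalization and 2 without both least correlated arrays, against 10, and 2 to 12 with 1 array left out (median 0.08 to 0.21). At 30 °C it was 28 to 44 (median 0.34 to 0.47). The count for the difference of the temperature changes was 17 without both arrays, against 11, and 7 to 16 with 1 array left out (median -0.33 to -0.19). With the replicate block the counts were 49 and 50 for temperature in EC1118 and CEN.PK113-7D, 9 and 41 for the strains at 15 °C and 30 °C, and 13 for the difference. Some changes near 0 turned sign when 1 array was left out: DBP10 in CEN.PK113-7D ranged between -0.050 (without replicate 1 at 15 °C) and 0.11, and RPF1 in EC1118 between -0.018 (without replicate 3 at 15 °C, also with its counterpart left out) and 0.16. DBP10 was -0.040 without replicate 2 of CEN.PK113-7D at 30 °C. In EC1118 the changes of RRP14 and MAK21 also turned sign, each in 1 of 21 alternatives. The cause of these shifts was not tested.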
